A study of Chlamydomonas reinhardtii with 2 samples.

Results

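Plastid ribosomal proteins are the protein components of the ribosome inside the chloroplast. Their genes were taken from the deposited table by symbol, as every gene whose name begins with PRPS (small subunit), PRPL (large subunit) or PSRP (plastid-specific ribosomal protein), and the rule itself uses no measured value, although it was set when earlier results of these data were known. The rule found 34 of 17147 genes, made up of 8 PRPS, 22 PRPL and 4 PSRP genes. For each of the 34 the table's own annotation names a plastid or chloroplast ribosomal protein, so the label holds for all of them. No further gene was described as a plastid ribosomal protein without such a symbol.

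The chloroplast ribosome descends from that of a cyanobacterium and translates the messages of the chloroplast genome, among them core subunits of the photosystems, the ATP synthase and the large subunit of Rubisco. Its RNA and a share of its proteins are encoded in the chloroplast, while the remaining proteins, the subject here, are encoded in the nucleus, made in the cytosol and imported. Most are counterparts of bacterial ribosomal proteins and carry the bacterial numbers. The plastid-specific ribosomal proteins were named in plant plastids because they had no counterpart among the proteins of the Escherichia coli ribosome.

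RNA was sequenced from 2 cultures of Chlamydomonas reinhardtii, a unicellular green alga, of the wild-type strain CC-1690 (21gr). Washed cells of the phosphate-replete group spent 24 h in acetate medium containing 1.1 mM phosphate (TAP), and those of the phosphate-deprived group 24 h in the same medium without phosphate (TA). Both groups grew at 25 °C under constant light (70 µmol per m2 per s) with shaking (200 rpm). Each condition had 1 library, so no difference below has a replicate check and no p-value can be given. In bulk RNA, less of a transcript in every cell and fewer cells that carry it cannot be told apart, nor can less of 1 transcript and more of all others.

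Values are RPKM, which scale reads to transcript length and library depth. Levels are compared between genes on that scale only, because the counting and the annotation version are not given. The sum of RPKM was 901012 with phosphate and 855498 without it. Folds are given as log2((deprived + 1)/(replete + 1)), with 1 RPKM added on both sides, and this makes differences of genes with low values look smaller than they are. Counts run over the 13855 genes with a mean of at least 1 RPKM, which all 34 members passed. Over these genes the median log2 fold was 0.14, and 775 genes (5.59%) were at least 2-fold higher against 227 lower. That split moved with scaling, to 503 and 430 when both libraries were given the same median.

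All 34 plastid ribosomal protein genes had less RNA in the phosphate-deprived library. In 25 of them, 73.5%, the difference was at least 2-fold, and in none was the value higher. Over all genes 1.64% were at least 2-fold lower and 38% had a log2 fold below 0. The median log2 fold of the members was -1.15, with an SD of 0.24 across the 34 genes and a range from -1.74 to -0.62. Summed over members, 13280 RPKM in the replete library stood against 5786 RPKM in the deprived library, 43.6% of the replete sum. They made up 1.47% of all RPKM with phosphate and 0.676% without it.

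**Figure D1:**
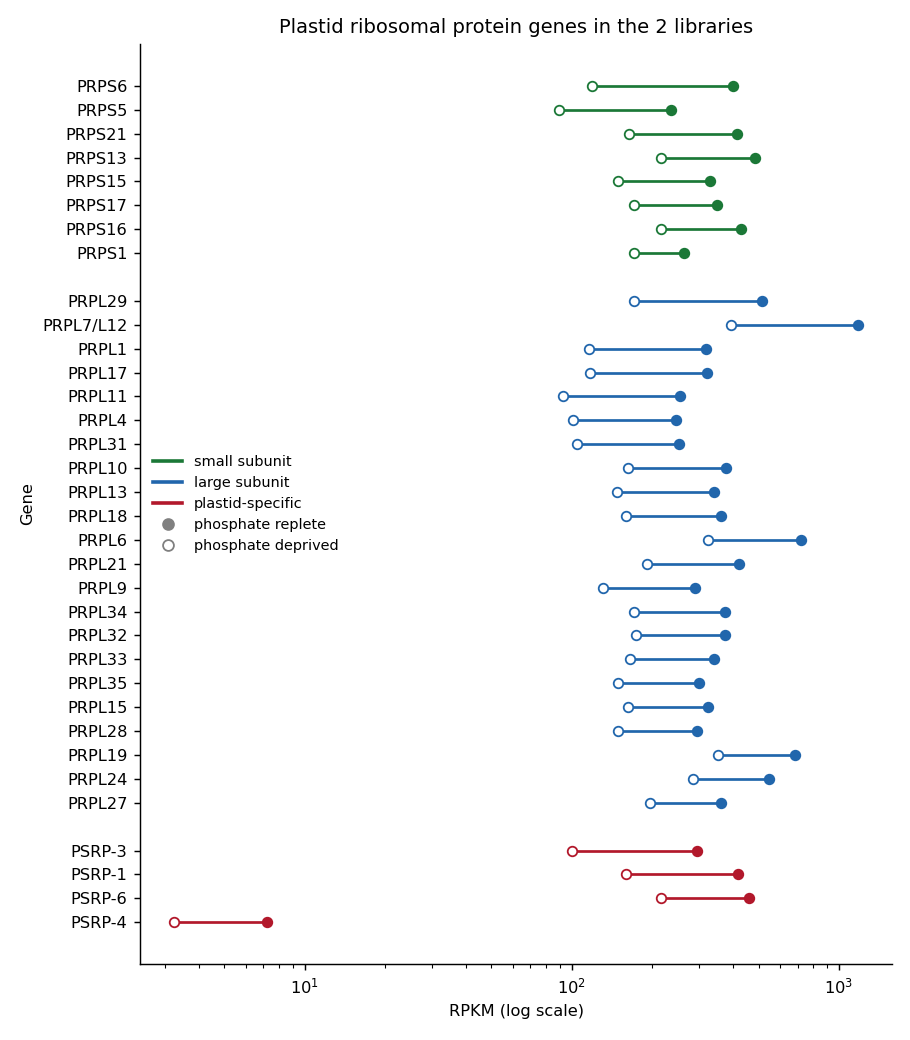
RPKM of each of the 34 genes (log axis) in the replete library (filled) and the deprived library (open), 1 library each, grouped by class and sorted by fold. Every open point lies left of its filled point; PSRP-4 stands apart from the other 33 genes in level.

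The 2-fold line runs through a dense stretch of the members. PRPS17 (-1.02), PRPL33 (-1.03) and PSRP-6 (-1.09) lay just past it. PRPL35 (-0.999), PRPL15 (-0.99), PRPS16 (-0.99), PRPL28 (-0.98), PRPL19 (-0.95), PSRP-4 (-0.95) and PRPL24 (-0.95) lay just short of it. The count of 25 therefore depends on small shifts of scale more than the median does, and it was 33 of 34 when both libraries were scaled to the same median. Under each of the 4 scalings tried, all 34 members kept a log2 fold below 0.

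Among the 8 small subunit genes, PRPS6 had the lowest fold of all 34 members. Its product, S6, sits in the platform of the small subunit and pairs with S18 in bacteria. PRPS6 had 399 RPKM with phosphate and 119 RPKM without it, a log2 fold of -1.74, so that 29.7% of the replete value was left. It ranked 12th among members in the replete and 26th in the deprived library, and 13th lowest among all 13855 genes.

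PRPS1 was at the other end. S1 is an RNA-binding protein that in bacteria helps to bring messenger RNA to the ribosome. PRPS1 had 263 RPKM with phosphate and 170 RPKM without it (log2 fold -0.62), leaving 64.8% of the replete value. The next highest member, PRPL27, had -0.88, so PRPS1 was separated from the rest, and it moved from rank 29 to rank 14 in level. Of all genes, 5.90% had a fold as low as that of PRPS1.

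The other small subunit genes lay between these 2. PRPS5, whose product lines the entry channel for messenger RNA, had 236 and 89.6 RPKM (-1.39), the lowest level of the class in both libraries. PRPS21 had 415 and 163 RPKM (-1.34), and S21 lies near the end of the small ribosomal RNA that pairs with messages in bacteria. PRPS13, for a protein of the subunit's head that contacts the large subunit, was the most abundant of the class with phosphate, at 486 RPKM against 215 RPKM without it (-1.17). PRPS15 and PRPS17 code for proteins that bind ribosomal RNA first during assembly in Escherichia coli. They had 329 and 148 RPKM (-1.15) and 348 and 172 RPKM (-1.02). Neither of these genes was below the members' median of -1.149, but PRPS15 (-1.146) lay next to it. With quantile normalization PRPS15 was below the median (-1.144 against -1.141). Of the 6 small subunit proteins of this kind that were looked up, only these 2 have genes among the members. PRPS16, whose bacterial counterpart takes part in assembly of the subunit, had 430 and 216 RPKM (-0.99).

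Of the 22 large subunit genes, PRPL7/L12 was by far the most abundant. L7/L12 forms the flexible stalk that recruits translation factors and is present in several copies per ribosome, unlike the other proteins. Its gene had 1181 RPKM with phosphate and 395 RPKM without it (-1.58). In the replete library that was 3.33 times the members' median level and in the deprived library 2.44 times, so its lead over the other members was smaller without phosphate.

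The genes for the remaining parts of the stalk were low as well. PRPL10, for the protein that anchors L7/L12, had 377 and 162 RPKM (-1.21). PRPL11, for the protein at the stalk's base where elongation factors bind, had 253 and 92.5 RPKM (-1.44). As many members lie below the members' median fold as above it, and all 3 stalk genes lay below it, PRPL10 the nearest to it. PRPL1, for the protein of the mobile L1 stalk on the opposite side where spent transfer RNA leaves, had 319 and 116 RPKM (-1.46).

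Genes for proteins around the tunnel through which the growing chain leaves were spread over the range. PRPL29, whose product lies at the tunnel's mouth, had 517 and 171 RPKM (-1.59), the second lowest fold of all members. PRPL17, for another protein near the exit, had 321 and 117 RPKM (-1.45). PRPL4, for a protein that reaches into the tunnel wall, had 245 and 101 RPKM (-1.27). PRPL24, for an early assembly protein at the exit, had 547 and 283 RPKM (-0.95) and was short of 2-fold. PRPL13, also an early assembly protein in Escherichia coli, had 341 and 148 RPKM (-1.20). The 3 early assembly genes, PRPL4, PRPL13 and PRPL24, thus ran from -1.27 to -0.95.

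PRPL6, PRPL19 and PRPL24 were the most abundant large subunit genes after PRPL7/L12. PRPL6, for a protein next to the site that binds elongation factors, had 718 and 323 RPKM (-1.15). PRPL19, for a protein at the contact between the subunits, had 686 and 354 RPKM (-0.95) and overtook PRPL6 in the deprived library. PRPL27, for a protein that reaches towards the peptidyl transferase centre, had 362 and 196 RPKM (-0.88), the smallest difference in the large subunit.

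The other 10 large subunit genes lay close together. Their folds ran from -1.26 in PRPL31 (252 and 105 RPKM) to -0.98 in PRPL28 (293 and 149 RPKM). PRPL18, for a protein that binds the smallest ribosomal RNA in bacteria, had 361 and 160 RPKM (-1.17). PRPL9 had 289 and 131 RPKM (-1.13), PRPL21 had 421 and 190 RPKM (-1.14), and PRPL32 had 376 and 173 RPKM (-1.11). PRPL34 had 373 and 171 RPKM (-1.12), PRPL33 had 340 and 166 RPKM (-1.03), and PRPL35 had 299 and 149 RPKM (-0.999). PRPL15 had 325 RPKM with phosphate and 162 RPKM without it (-0.99).

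Of the 4 plastid-specific genes, 3 had levels within the range of the subunit genes. PSRP-1, related to the bacterial factors that hold ribosomes in a resting state, had 417 and 160 RPKM (-1.38). PSRP-3, described as a small subunit protein, had 294 and 99.8 RPKM (-1.55), the fourth lowest fold of all members. PSRP-6, the only one of the 4 described as belonging to the large subunit, had 459 and 215 RPKM (-1.09). The value of PSRP-1, the gene for a resting factor, was lower without phosphate like those of the structural proteins.

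PSRP-4 stood apart from every other member in level. It had 7.21 RPKM with phosphate and 3.25 RPKM without it, 0.0204 and 0.0200 times the members' median, while the other 33 genes started at 236 and 89.6 RPKM. Its position relative to the other members was thus nearly the same in both libraries. Its log2 fold was -0.95 with 1 RPKM added and passed 2-fold with 0.1 RPKM or nothing added. In 1219 genes the deprived value was 0.870 times the replete value. This may stand for equal read numbers, an inference from the values. The largest replete value among these genes, 160.7 RPKM, was taken as 1 read on 1 base, an assumption that was not checked. On that assumption a step, meaning 1 read on a transcript of 1000 bases, was worth 0.161 RPKM with phosphate and 0.140 RPKM without it. PSRP-4 then rested on about 44.9 and 23.2 such steps for such a transcript, against at least 1467 and 641 for any other member. Without PSRP-4 the members' median was -1.15, with 25 of 33 at least 2-fold lower.

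The folds of small and large subunit genes overlapped. The median log2 fold was -1.16 over the 8 PRPS genes (range -1.74 to -0.62), -1.15 over the 22 PRPL genes (-1.59 to -0.88) and -1.23 over the 4 PSRP genes (-1.55 to -0.95). At least 2-fold lower were 6 of 8, 16 of 22 and 3 of 4. The summed RPKM left without phosphate was 44.5% for PRPS, 43.7% for PRPL and 40.6% for PSRP genes. The 3 ranges overlapped along most of their length, and the small subunit was the widest because it held both the lowest and the highest member. With the PSRP genes placed by their description, a grouping made after the values were seen, the medians were -1.17 over 11 small and -1.14 over 23 large subunit genes.

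**Figure D2:**
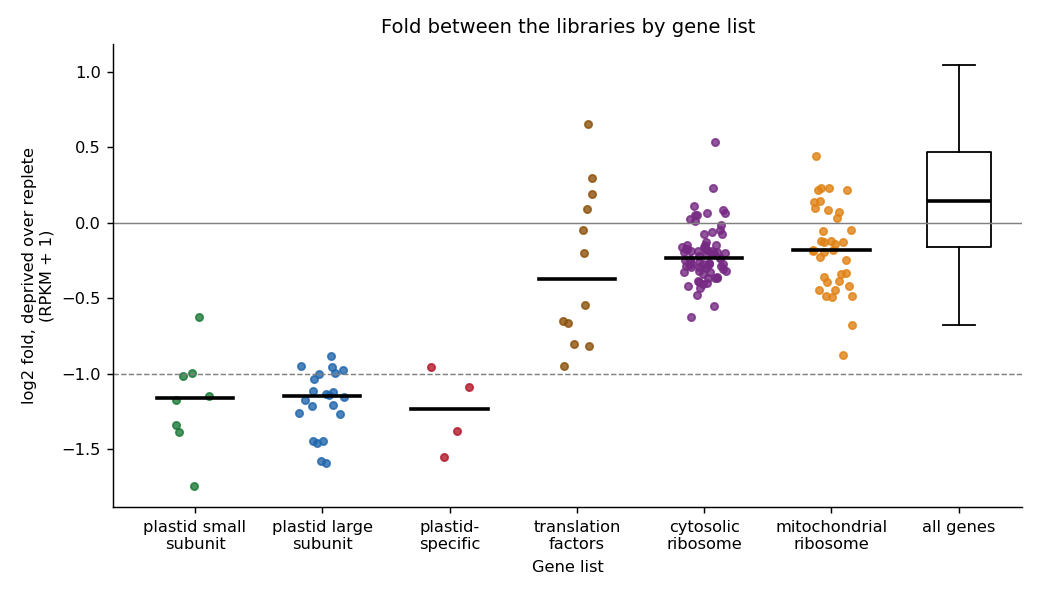
Log2 fold (deprived over replete, RPKM + 1) of each gene by list, with a bar at the median; the box for all 13855 genes spans the 25th to 75th percentile and its whiskers the 5th to 95th. The dashed line marks 2-fold lower, and the 3 plastid classes cluster around it at medians of -1.16, -1.15 and -1.23.

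The members differed among themselves in level by a similar amount in both libraries. Across the 33 members other than PSRP-4, the SD of log2 RPKM was 0.49 with phosphate and 0.52 without it. PRPL7/L12 was the most abundant member in both.

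The members were abundant genes, and abundant genes were more often low. Of the 767 genes with a mean of at least 100 RPKM, a level chosen after the values were seen, 57 (7.43%) were at least 2-fold lower and 55.9% had a fold below 0. Members made up 25 of these 57 genes, 43.9%, and 75.8% of the 33 members at that level were among them. Of the other 734 genes at this level 32 were at least 2-fold lower, 4.36%, with a median log2 fold of -0.05. The share at least 2-fold lower was thus larger among members than among other genes of this level.

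Ribosomal protein genes of the cytosol, matched by symbol, were more abundant, and their values in the libraries were closer to each other. Over 73 genes the median log2 fold was -0.24 (range -0.63 to 0.54), with 63 below 0 and 0 at least 2-fold lower or higher. Over all genes the median was 0.14, 38% were below 0 and 1.64% were at least 2-fold lower. Among genes with a mean of at least 100 RPKM, 55.9% were below 0, so the cytosolic list also leaned low. The largest absolute folds were those of RPL37a (5220 and 3381 RPKM, -0.63), RPS24 (3919 and 2677 RPKM, -0.55) and RPS27-B, which was higher without phosphate (30.3 and 44.4 RPKM, 0.54). Only RPL37a reached the fold of PRPS1, the highest plastid member. After scaling, the cytosolic median ran from -0.445 (same median) to -0.042 (quantile normalization). The summed RPKM left without phosphate was 86.6% in the cytosolic list and 43.6% in the plastid list.

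**Figure D3:**
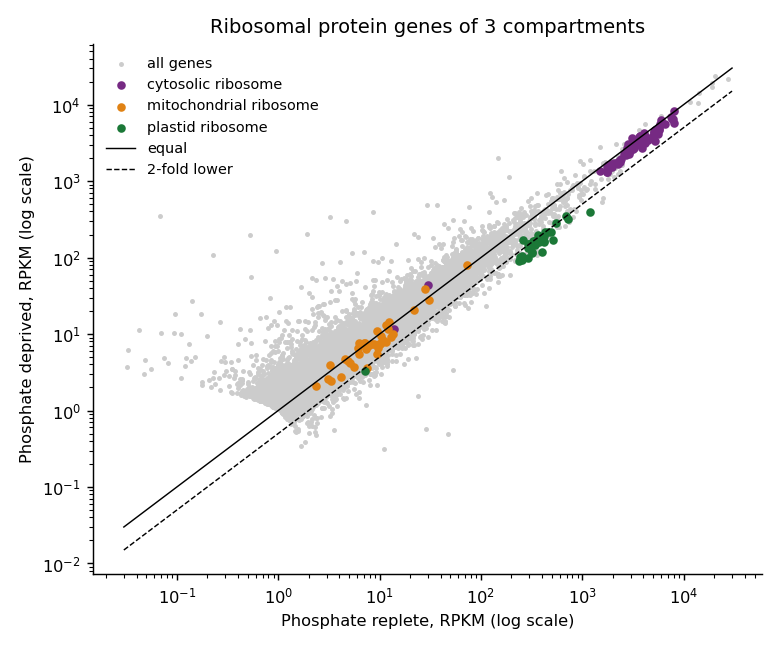
RPKM in the replete (x axis) against the deprived library (y axis), both log scaled, for all genes with a mean of at least 1 RPKM and for the 3 kinds of ribosomal protein genes. The plastid genes lie along the dashed line of 2-fold lower values. The cytosolic and mitochondrial genes lie nearer the line of equal values, with 63 of 73 and 26 of 37 of them below it.

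Ribosomal protein genes of the mitochondrion, the other organelle with a ribosome of bacterial descent, had low levels and a median log2 fold of -0.18 over 37 genes. Of these 26 were below 0, against 38% of all genes. With 1 RPKM added 0 were 2-fold different, with a range from -0.88 to 0.44. With both libraries scaled to the same median, the median of the list was -0.345. MRPL3, at least 2-fold lower when nothing was added, had 7.53 and 3.65 RPKM (-0.88), MRPL11 had 9.39 and 5.50 RPKM (-0.68), and MRPL21 had 9.65 and 6.57 RPKM (-0.49). MRPL3 and MRPL11 were the only 2 that reached the fold of PRPS1.

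For 14 families the table held both a plastid and a mitochondrial gene of the same number, and the plastid gene had the lower fold in all 14. The highest plastid fold among them (PRPL27, -0.88) was below the lowest mitochondrial fold (MRPL11, -0.68). Any pairing of these genes would thus give 14 of 14, and the matching by family adds nothing to that count. The difference in log2 fold ran from -1.89 to -0.53 with a median of -0.99. It was largest for S6, where the mitochondrial gene MRPS6 had 72.4 RPKM with and 80.2 RPKM without phosphate (0.15). It was smallest for S17, where MRPS17 had 5.60 and 3.72 RPKM (-0.48). Adding 1 RPKM shrinks the folds of the mitochondrial genes with low values. This widens the difference where such a gene was lower without phosphate and narrows it where the gene was higher. The pairs were not computed without the added 1 RPKM. The plastid gene was 41.0 times as abundant as its mitochondrial counterpart in the median family with phosphate and 19.6 times without it. For S6 the ratio went from 5.52 to 1.48.

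**Figure D4:**
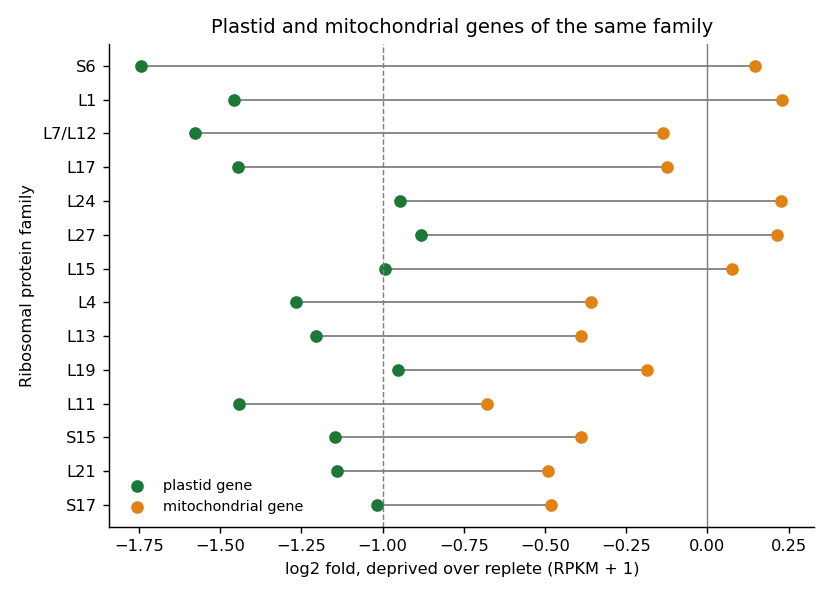
Log2 fold (deprived over replete, RPKM + 1) of the plastid and the mitochondrial gene in each of the 14 families found in both lists, 1 library per condition. Each plastid point lies left of its mitochondrial partner, with differences from -1.89 to -0.53.

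Other genes of bacterial-type translation were found by description: initiation, elongation and release factors and enzymes acting on the ribosome or its RNA. The median log2 fold over these 12 genes was -0.37, with 8 below 0 and 0 at least 2-fold lower or higher. Over all genes 38% were below 0 and 1.64% were at least 2-fold lower. With a mean of at least 5 RPKM required, 8 genes were left, 7 of them below 0, and the median was -0.66. The genes with the 3 largest folds were INFA, for organellar initiation factor 1 (51.8 and 26.4 RPKM, -0.95), EFP1, for organellar elongation factor P (198 and 112 RPKM, -0.82) and EFG2 (510 and 292 RPKM, -0.80). EFG2 is described as elongation factor 2, a name used for the cytosolic factor. Chloroplast elongation factor G (EFG1) had 260 and 164 RPKM (-0.66), and the chloroplast trigger factor TIG1, which meets new chains at the tunnel exit, had 31.7 and 19.8 RPKM (-0.65). A fold at or below that of PRPS1 was found in these 5 of the 12, EFG2 among them, against 5.90% of all genes. The means of the 5 ran from 25.8 to 401 RPKM. The share was not computed for genes of like level, and abundant genes were more often low. EFG6, described as a GTP-binding protein, went the other way, with 21.8 and 34.9 RPKM (0.65). The list mixes genes of both organelles and, going by its description, may hold a cytosolic one in EFG2. Of its 12 genes 4 were above 0. EFG2 and EFG6, left out after the values were seen, lie on opposite sides of the median. Leaving them out could therefore not move it from -0.37, and this says nothing about how firm the median is.

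The members are scattered over the genome. Their identifiers carry 15 different chromosome numbers, with 8 genes on chromosome 6, 5 on chromosome 2 and 4 on chromosome 12. In the RefSeq gene order of assembly Chlamydomonas_reinhardtii_v5.5, in which 31 of the 34 could be found, PRPS15 and PRPL13 are direct neighbours. This pair had nearly the same values, 329 and 341 RPKM with phosphate and 148 RPKM for both without it. How reads between close genes were assigned is not given in the sources used here. The 51 other direct neighbours with a mean of at least 1 RPKM had a median log2 fold of -0.05 and ran from -1.16 to 0.98. Of these 26 were below 0 and 2 were at least 2-fold lower. They were the gene next to PSRP-3 (Cre02.g084000, 562 and 251 RPKM, -1.16) and PEX19 next to PRPS17 (11.5 and 5.17 RPKM, -1.02), both named after their values were seen. Over all genes the median was 0.14, 38% were below 0 and 1.64% were at least 2-fold lower.

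**Figure D5:**
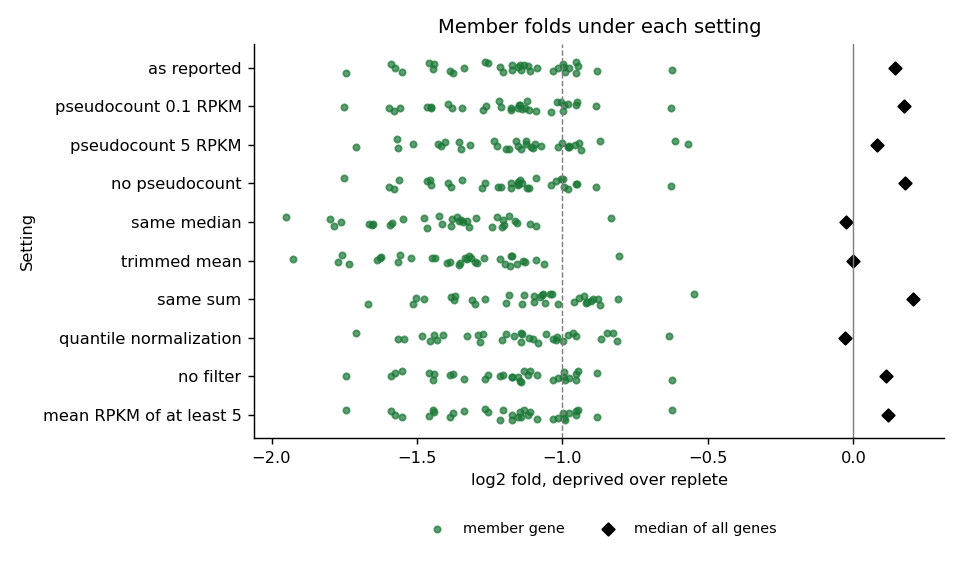
Log2 fold of the 34 member genes (points) and the median of all genes (diamonds) under the reported setting and each alternative of pseudocount, scaling and filter. All points lie below 0 in every setting shown, and the scalings to the same median and by trimmed mean move members and background together to the left.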

How the data were processed

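The authors deposited a single table of RPKM values for 17147 genes, with 1 column per library; each column was matched by its library code in the labels. Bowtie is named, without a version, per the submitters' processing notes. Not given in the sources used here are the counting, strand use, genome build, annotation version and filters, so no coordinates are printed, and how reads of similar or overlapping genes were shared is unknown. The table holds no 0 and no read counts, so depth per library is not known, and the steps given for PSRP-4 rest on an unchecked assumption. No sequences are shown.

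Members and lists were chosen with earlier results of these data known. Folds, counts and medians were computed with Python 3.11.15, NumPy 2.4.6, pandas 2.3.3 and SciPy 1.17.1 and tested on simulated data; figures used Matplotlib 3.10.9. A pseudocount of 1 RPKM and a mean of at least 1 RPKM were used. With 1 library per condition no test was run. Every member was named; of the other lists, the 3 genes with the largest absolute fold, plus genes picked out after their values were seen, namely EFG1, TIG1, EFG6, MRPS6 and MRPS17. Cytosolic genes were matched as RPL, RPS, RPP or RPSA and mitochondrial genes as MRPL or MRPS. A planned search of promoters and proteins was not run, because no sequences were at hand. Alternatives were pseudocounts of 0.1, 5 and 0 RPKM, 4 scalings, no filter, a mean of at least 5 RPKM and matching by description.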

Additional observations from a re-analysis of the deposited data

How the results depend on the processing

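The 9 alternatives of pseudocount, scaling and filter left all 34 members below 0. Members at least 2-fold lower numbered 23 (same sum) to 33 (same median and trimmed mean), and their median ran from -1.36 to -1.07; matching by description added no gene. Scaling moved the median of all genes by -0.17 (same median), -0.15 (trimmed mean), 0.06 (same sum) and -0.17 (quantile). Higher genes were 77.3% of those at least 2-fold different as deposited, and 53.9%, 56.5%, 83.1% and 56.4% under these scalings. Scaling to the same median multiplies all deprived values by the same factor, so the 3 classes had to move nearly alike. Their medians became -1.37 (small), -1.36 (large) and -1.44 (plastid-specific). With quantile normalization they were -1.08, -1.13 and -1.23, and the order of small and large was reversed. The cytosolic median was -0.445 with the same median, -0.42 with the trimmed mean and -0.042 with quantile normalization. In the mitochondrial list 1 gene was at least 2-fold lower with 0.1 RPKM or no pseudocount and under the same median, trimmed mean and quantile scalings, and the list median was -0.345, -0.33 and -0.36 under these 3. Of the translation factors 3 were with the same median and 1 each with the trimmed mean and quantile normalization, with medians of -0.54, -0.52 and -0.53, and -0.66 with a mean of at least 5 RPKM. The cause of these shifts was not tested beyond the scaling itself. The shift of each list's median between settings was set against the SD across the genes of that list. That SD describes the spread of genes and does not stand for variation between cultures. The shift was larger than the SD for the cytosolic list with the same median, trimmed mean and quantile scalings. It was also larger for the large subunit with the same median. No paired analysis was possible because each condition had 1 library.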
